A study of Homo sapiens with 19 samples.

Results

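The YAP target genes described here are CCN1, CCN2, ANKRD1, AMOTL2, LATS2, CRIM1 and AJUBA, which make up 7 of the 32703 genes listed in all libraries. They were matched by Ensembl identifier. The data are 19 droplet-based single-cell RNA libraries of human liver organoids. All organoids came from W01, a wild-type pluripotent line distributed by WiCell. Untreated organoids in ultra-low attachment (ULA) plates were harvested on day 21 (n = 3) or day 34 (n = 2). On day 25, 7 groups of 2 libraries each were harvested from orbital shaker (OS) culture. These were untreated organoids, 10 ng/ml of the cytokine TGFB1 with its control, PA at 500 µM with its control, and OA at 500 µM with its control. Treatment with TGFB1 or PA lasted 5 days after 20 days of culture, per the labels, which spell out neither PA nor OA, name OA in the sample titles alone and do not describe what the control organoids received. Dissociation used 10 minutes of trypsin, and every group but the day 21 ULA organoids received another 10 minutes. All libraries derive from 1 cell line, and nothing in the labels says whether replicates came from separate differentiations, so the p-values measure the spread between these libraries, which may be technical.

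YAP and its paralogue TAZ (WWTR1) are transcriptional coactivators that bind DNA through the TEAD factors. The Hippo kinases STK3 and STK4 activate the kinases LATS1 and LATS2, which phosphorylate YAP and TAZ and hold them in the cytoplasm. Cell spreading, stiff matrix and actin tension favour entry of YAP and TAZ into the nucleus. In liver, YAP is known for its activity in bile duct cells, in activated fibrogenic mesenchyme and in regenerating or injured tissue, and hepatocytes at rest hold little of it. CCN1 and CCN2 encode secreted matricellular proteins, and ANKRD1 encodes an ankyrin repeat protein of nucleus and sarcomere. AMOTL2, an angiomotin that binds YAP, and LATS2 itself form negative feedback on the pathway, and AJUBA is a LIM scaffold that restrains LATS kinases. CRIM1 encodes a transmembrane protein that binds bone morphogenetic proteins.

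The classical TEAD motif GGAATG was sought on both strands in the 250 bases before each start in RefSeq promoters (GRCh38.p14), where 11.9% of 35116 windows held it. The table held windows for 5 of the 7 genes, and CCN1 and CRIM1 are named only. The 2 windows below are shown because CCN2 and ANKRD1 had the most copies and moved in opposite directions in a comparison described later. Capitals mark GGAATG, both windows lie on the minus strand, and each is written 5′ to 3′ in the direction of transcription.
CCN2, chr6:131951373-131951622: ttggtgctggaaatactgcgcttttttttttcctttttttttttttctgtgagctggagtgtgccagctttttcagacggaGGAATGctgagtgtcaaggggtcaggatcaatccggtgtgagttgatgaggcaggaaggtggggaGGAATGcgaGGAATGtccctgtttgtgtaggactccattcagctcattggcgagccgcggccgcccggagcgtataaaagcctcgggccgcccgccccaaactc
ANKRD1, chr10:90921088-90921337: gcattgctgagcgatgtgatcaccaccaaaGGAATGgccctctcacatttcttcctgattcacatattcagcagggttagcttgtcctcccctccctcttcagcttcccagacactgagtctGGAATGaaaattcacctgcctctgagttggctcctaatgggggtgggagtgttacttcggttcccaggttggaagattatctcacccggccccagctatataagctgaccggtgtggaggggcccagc
The CCN2 window, in front of a gene that spans chromosome 6 positions 131948176 to 131951372, held 3 copies that began 169, 104 and 95 bases before the start. The ANKRD1 window, in front of chromosome 10 positions 90912096 to 90921087, held 2 copies, 220 and 128 bases before the start. AMOTL2 and AJUBA have 2 windows each, of which 1 held a single copy, 69 and 59 bases before the start belonging to that window. Both of these windows lie inside the gene spans given below, and the window nearer the 5′ end of each gene held 0. The LATS2 window also held 0. The AP-1 motif TGANTCA, present in 6.57% of all windows, occurred once in the ANKRD1 window and in none of the other members' windows. The SMAD motif CAGAC, present in 38.0% of windows, occurred once in the CCN2 window, 2 times in the ANKRD1 window, 2 times in the AJUBA window that lacks GGAATG, once in the AMOTL2 window that lacks it, and in none of the others. The CArG box, the element bound by serum response factor, was in 1.16% of all windows and in 0 of the 7. A match describes letters in a window and not binding. On GRCh38 (GENCODE v44) the remaining members lie at chromosome 1 positions 85580761 to 85584589 (CCN1), chromosome 2 positions 36355778 to 36551135 (CRIM1), chromosome 3 positions 134355347 to 134375479 (AMOTL2), chromosome 13 positions 20973036 to 21061586 (LATS2) and chromosome 14 positions 22971177 to 22982551 (AJUBA).

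A cell was used if it had 500 or more genes detected and no more than 20% of its counts from mitochondrial genes, which left 3089 to 12427 cells and 6880807 to 91184130 UMIs per library. Levels are given as CPM, the UMIs of a gene per 1000000 UMIs of the 32703 genes listed in all libraries, summed over the cells used from a library. The UMI totals above count every gene of a library's own list, so they are larger than this denominator where the list is longer. Log2 fold changes come from edgeR with TMM size factors instead of library totals. A fold change can therefore differ in size or sign from the levels printed beside it. The median UMI count per cell ran from 1310 to 14304, and TGFB1 control replicate 1 (1310) and PA control replicate 1 (1747) were the shallowest. Any pair of libraries shared at most 43 cell barcodes. The labelled liver identity was checked on hepatocyte markers, whose summed level ranged from 84.8 to 785 CPM in the day 34 ULA libraries and from 2116 to 22621 CPM in the other groups, and all 8 markers were detected in every library. Endothelial markers summed to at most 177 CPM and immune markers to at most 82.4 CPM in any whole library. Since whole-library values pool all cells, fewer cells of a type and less RNA per cell cannot be told apart in them.

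All 7 genes were detected in every library. CCN1 ranged from 19.8 to 262 CPM, a span of 13.2-fold, CCN2 from 15.4 to 381 CPM (24.7-fold), and ANKRD1 from 2.63 to 170 CPM (64.4-fold). The other 4 varied less, with AMOTL2 between 9.08 and 32.6 CPM, LATS2 between 11.7 and 27.3 CPM, CRIM1 between 10.9 and 25.1 CPM and AJUBA between 8.60 and 46.3 CPM. The 3 genes with wide spans had different orders across groups. Mean CCN1 was highest in day 34 ULA organoids, followed by TGFB1, TGFB1 control, untreated OS, OA control, PA control, day 21 ULA, PA and OA, and only 2 of the 8 neighbouring pairs in this order did not overlap, TGFB1 over its control and PA over OA. Mean CCN2 ran from TGFB1 control through TGFB1, PA control, untreated OS, PA, OA control, day 34 ULA and OA to day 21 ULA. Of its 8 neighbouring pairs, 4 were separate, namely TGFB1 from PA control, OA control from day 34 ULA, day 34 ULA from OA, and OA from day 21 ULA. Mean ANKRD1 ran from PA control through PA, untreated OS, OA, TGFB1, TGFB1 control and OA control to day 21 and day 34 ULA, with 3 separate neighbours, PA from untreated OS, TGFB1 control from OA control, and OA control from day 21 ULA. For the others most neighbours overlapped, with 2 separate pairs for AMOTL2 and AJUBA and 1 for LATS2 and CRIM1. The experiments were counted against gene lists of different sizes, so this order is a description and tests were made within OS and within ULA alone.

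**Figure D1:**
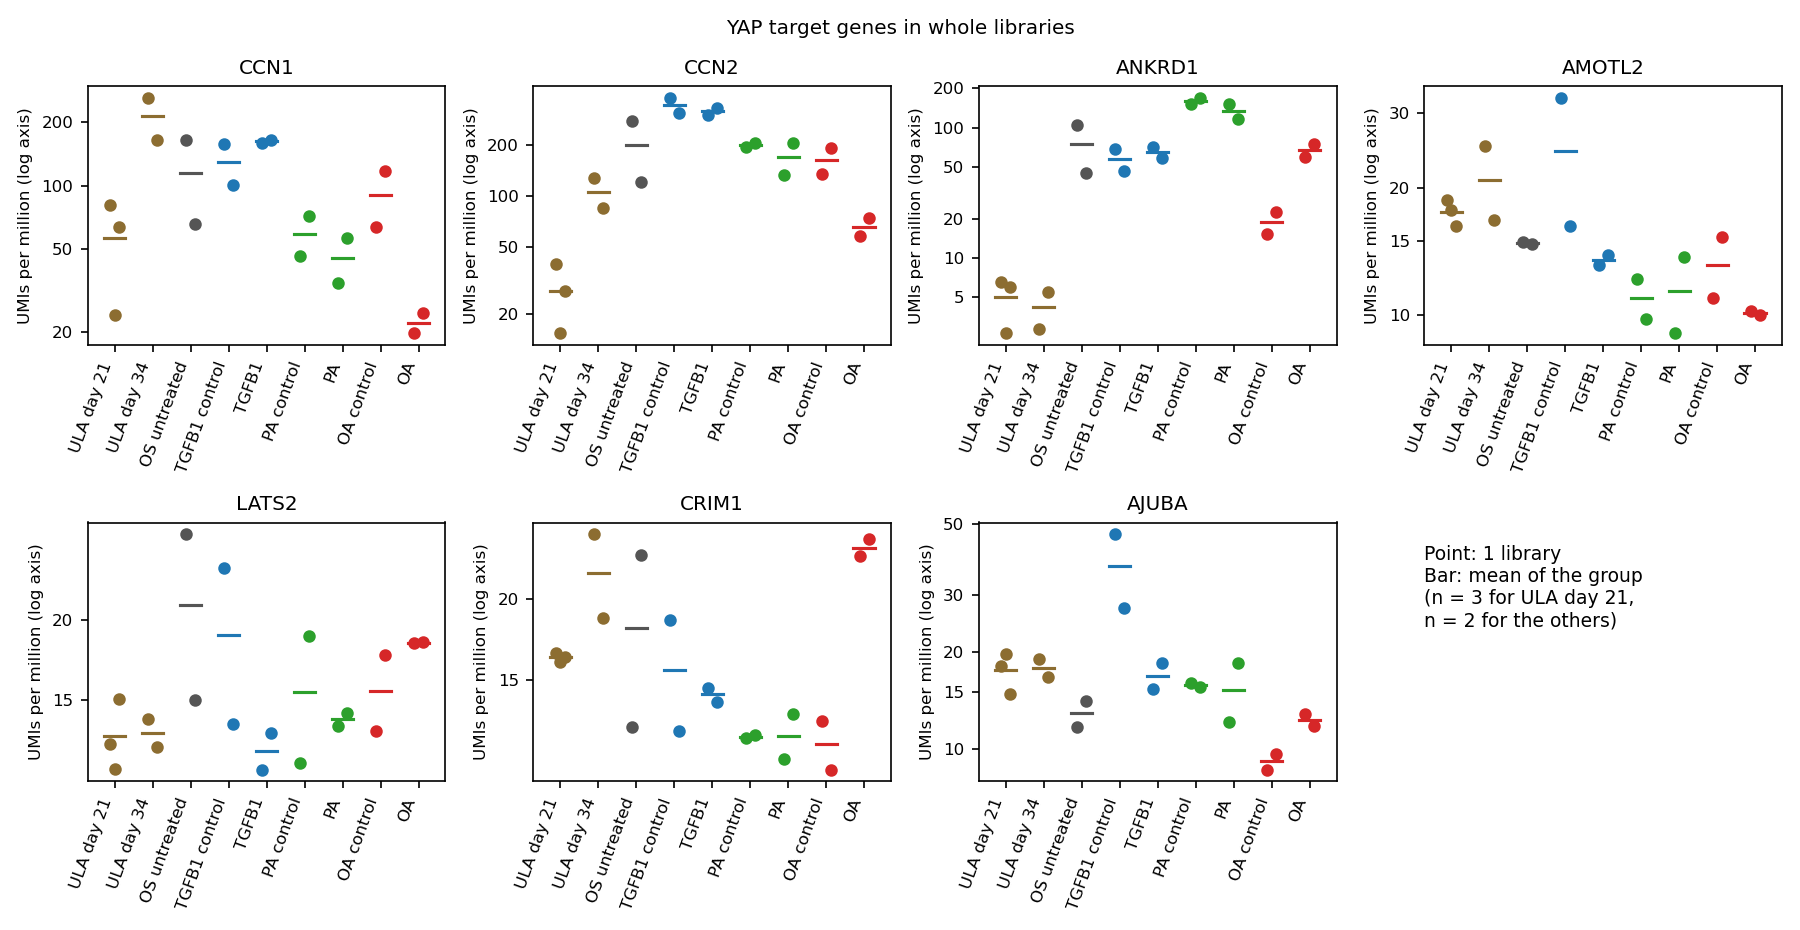
Level of each YAP target gene in whole libraries, in CPM on a log axis, by group; points are libraries and bars group means. ANKRD1 lies between 2.63 and 6.56 CPM in the 5 ULA libraries and at 15.2 CPM or more in every OS library, whereas AMOTL2, LATS2 and CRIM1 stay within narrow ranges.

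The first comparison was of TGFB1 with its control. Of the 7, edgeR called 1, AJUBA, which fell, while 22.2% of 19366 genes tested were called. Among the secreted products, CCN1 stood at 160 and 166 CPM with TGFB1 against 158 and 101 CPM in control replicates 1 and 2, and CCN2 at 302 and 331 CPM against 381 and 308 CPM. The CCN1 ranges did not overlap but met closely at control replicate 1, and the CCN2 ranges overlapped. The log2 fold changes were 0.55 (edgeR adjusted p = 0.301, SE 0.37) for CCN1 and 0.08 (edgeR adjusted p = 0.875, SE 0.30) for CCN2, a gene widely used as a readout of both TGF-β and YAP. ANKRD1 stood at 71.0 and 58.2 CPM against 68.3 and 46.5 CPM, with overlapping groups and a log2 fold change of 0.39 (edgeR adjusted p = 0.382, SE 0.30).

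AJUBA stood at 15.3 and 18.4 CPM with TGFB1 and at 46.3 and 27.3 CPM in the control, so both treated libraries lay under both controls. Its log2 fold change was -0.90 (edgeR adjusted p = 0.0199, SE 0.25). The control libraries differed from each other by more than the treated libraries did, and replicate 1, the shallow library, was also the highest of all 19 for AMOTL2 (32.6 CPM). Without it the AJUBA change was -0.60 (edgeR adjusted p = 0.181), and without TGFB1 replicate 1 or 2 it was -0.77 and -1.03 (edgeR adjusted p = 0.177 and 0.0633). The call was also lost in a fit of these 4 libraries alone (-0.90, edgeR adjusted p = 0.0509). AMOTL2 (13.1 and 13.9 against 32.6 and 16.3 CPM) and LATS2 (11.7 and 13.3 against 24.2 and 13.8 CPM) had log2 fold changes of -0.62 and -0.37 that did not pass the test, although AMOTL2 passed it without control replicate 2 (-0.96, edgeR adjusted p = 0.0200). CRIM1 stood at 14.6 and 13.9 CPM against 18.5 and 12.6 CPM, with overlapping groups and a log2 fold change of 0.10 (edgeR adjusted p = 0.837). The median log2 fold change of the 7 was 0.08, and that of all genes tested was -0.05.

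Other genes of the pathway were counted in lists chosen for it. Of 16 further genes of a published YAP/TAZ target signature, 6 rose with TGFB1 and 0 fell, with a median log2 fold change of 0.73. FJX1, a secreted regulator of planar cell polarity, rose from 8.16 and 11.9 CPM to 63.6 and 56.1 CPM, MYOF, a membrane repair protein, from 15.1 and 15.7 to 40.0 and 34.6 CPM, and AXL, a receptor tyrosine kinase, from 7.65 and 8.38 to 21.2 and 22.6 CPM. IGFBP3, the most abundant of the list, was at 76.6 and 81.8 CPM against 55.4 and 46.97 CPM (log2 fold change 0.84, edgeR adjusted p = 0.142). Among 9 genes for YAP, TAZ, TEADs and cofactors, 2 rose and 1 fell. WWTR1, which encodes TAZ, rose by 0.87 on the log2 scale (edgeR adjusted p = 0.00963) and VGLL3, a TEAD cofactor, by 2.30, while VGLL1, another TEAD cofactor, fell from 2.85 and 3.37 CPM to 0.318 and 0.153 CPM. YAP1 itself had a log2 fold change of -0.70 (edgeR adjusted p = 0.147, SE 0.33). Among 16 Hippo kinases, adaptors and upstream regulators, 2 rose, FRMD6 and MAP4K4, and 3 fell, including WTIP and WWC1. Both lists held calls in both directions, and under scaling by library totals, which lowered the median of all genes by 0.19, the Hippo list had 1 rise and 5 falls and the YAP and TEAD list 1 of each. With each of the 4 libraries left out in turn, calls in either direction ranged from 1 to 5 in the Hippo list, from 2 to 4 in the YAP and TEAD list and from 4 to 6 among the further targets, lowest in each without TGFB1 replicate 1 and highest without control replicate 2.

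Markers of the stimulus itself moved in these libraries. Of 6 TGF-β target genes, 5 rose, including PMEPA1 (135 and 163 to 645 and 580 CPM), TGFBI (41.1 and 41.2 to 219 and 230 CPM), LTBP2 and the most abundant of them, SKIL. Of 9 actin and serum response factor target genes 5 rose, among them TPM1 (421 and 594 to 3302 and 2863 CPM), TAGLN and FLNA. Beside these values, the summed mesenchymal markers were 909 to 1638 CPM in the control and 5737 to 6371 CPM with TGFB1, 5 of 8 of them called higher, and immediate early genes summed to 2866 to 4334 CPM and 2423 to 2697 CPM, with 2 of 12 called higher (ATF3 among them) and 3 lower (FOS and NR4A1 among them), or 1 and 4 under library totals. The hepatocyte markers summed to 2589 to 3917 CPM in the control and 4515 to 5360 CPM with TGFB1, although 1 of 8 was called higher and 5 lower. The part of these markers in the member values was not tested. On leaving out each library, calls ranged from 2 to 6 of the actin genes and from 1 to 5 of the immediate early genes, lowest without TGFB1 replicate 1. Immediate early genes are known to respond within minutes to stress and dissociation. The list of 12 also holds HSPA1A, a heat shock gene.

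The next comparison was of PA with its control. None of the 7 members passed the edgeR test and DESeq2 also called 0, in a comparison in which edgeR called 0.0465% of all genes tested. An unadjusted p under 0.05 was reached by 0 of the 7 and by 540 of 19366 genes. CCN1 stood at 34.5 and 56.3 CPM with PA against 46.2 and 71.5 CPM in the control, CCN2 at 134 and 206 against 196 and 205 CPM, and ANKRD1 at 151 and 117 against 151 and 170 CPM. All 3 sets of values overlapped. LATS2 stood at 13.7 and 14.3 CPM against 11.9 and 18.9 CPM, CRIM1 at 11.3 and 13.3 against 12.2 and 12.3 CPM, and AJUBA at 12.1 and 18.4 against 16.0 and 15.6 CPM, again with overlap. The log2 fold changes of the 7 lay between -0.31 for CCN1 (SE 0.37) and 0.13 for AMOTL2 (SE 0.28), with a median of -0.10 beside 0.02 for all genes. The standard errors of 0.25 to 0.37 on the log2 scale set the size of change that these 4 libraries could show. In the lists of further targets, Hippo regulators, YAP and TEAD genes, immediate early, TGF-β target and actin genes edgeR called 0 of 16, 16, 9, 12, 6 and 9.

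OA gave the most calls among the 7 genes, in both directions, in a comparison in which 43.3% of all genes tested were called, 21.7% higher and 21.6% lower. CCN1 and CCN2 fell, ANKRD1, CRIM1 and AJUBA rose, and LATS2 and AMOTL2 did not pass the test. CCN1 stood at 19.8 and 24.7 CPM with OA against 63.2 and 117 CPM in the OA control, and the groups did not overlap. Its log2 fold change was -1.66 (edgeR adjusted p = 0.00327, SE 0.38). CCN2 stood at 57.8 and 73.7 CPM against 135 and 191 CPM, again without overlap, with a log2 fold change of -0.96 (edgeR adjusted p = 0.0221, SE 0.31) that missed the threshold without OA control replicate 2 (-0.78, edgeR adjusted p = 0.144), without OA replicate 1 (-0.81, edgeR adjusted p = 0.158) and without OA replicate 2 (-1.13, edgeR adjusted p = 0.0536).

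ANKRD1 went the other way, at 59.8 and 75.2 CPM with OA against 15.2 and 22.6 CPM, a log2 fold change of 2.19 (edgeR adjusted p = 1.4e-04, SE 0.32). Its promoter window and that of CCN2, printed above, both hold repeated GGAATG. CRIM1 stood at 23.3 and 24.6 CPM against 13.0 and 10.9 CPM (log2 fold change 1.33, SE 0.28, edgeR adjusted p = 0.00208). AJUBA stood at 12.8 and 11.8 CPM against 8.60 and 9.65 CPM (log2 fold change 0.77, SE 0.25, edgeR adjusted p = 0.0230). This call was lost when libraries were scaled by their totals alone (0.43, edgeR adjusted p = 0.205) and on leaving out any of the 4 libraries (0.69 to 0.85). Scaling by totals lowered the median of all genes by 0.34 in this comparison, and the directions of the 5 called members held under it. LATS2 stood at 18.4 and 18.5 CPM against 13.4 and 17.6 CPM (log2 fold change 0.60, edgeR adjusted p = 0.0838, and 0.55 with 0.00945 in a fit of the 4 libraries alone). AMOTL2 stood at 10.2 and 10.0 against 10.99 and 15.3 CPM, without overlap. Its log2 fold change was -0.03 (edgeR adjusted p = 0.944), and it ranged from -0.38 to -0.01 under the alternatives that left out no library. The median of the 7 was 0.60 beside -0.08 for all genes.

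The cell makeup of these libraries moved with OA. Cells with a UMI of COL1A2 or COL3A1 and none of EPCAM made up 1.18% and 1.94% of cells with OA and 35.3% and 37.5% in the control, and the 8 other mesenchymal markers, all called lower, summed to 244 to 282 CPM against 2775 to 4267 CPM. Of 8 hepatocyte markers 7 were called higher (median log2 fold change 2.82, summed level 15660 to 17908 CPM against 8642 to 11544 CPM), as were 3 of 7 epithelial markers (6878 to 7164 against 5746 to 5960 CPM). Of 5 immune markers 1 was abundant enough to test, CD68, and it was called higher (2.90). The 5 summed to 70.9 to 82.4 CPM with OA against 10.4 to 15.4 CPM, with up to 3 of them undetected in a library. In cells with EPCAM but neither collagen, the 5 markers summed to 73.5 to 86.7 CPM with OA against 14.8 to 20.1 CPM. Whether the number of immune cells changed was not tested. The part of all these markers in the member values was not tested.

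Of the 16 further YAP/TAZ targets 5 rose and 9 fell with OA, or 2 and 9 when scaled by library totals. Among those that fell, AXL went from 10.3 and 15.3 CPM to 1.17 and 0.999 CPM, RBMS3, an RNA-binding protein, from 5.74 and 8.58 to 0.742 and 0.480 CPM, and IGFBP3 from 107 and 143 to 39.5 and 33.9 CPM, while FOXF2, a mesenchymal transcription factor, was at 4.53 and 4.14 CPM in the control and at 0.0185 and 0.0192 CPM with OA. Of the 9 YAP and TEAD genes 0 rose and 3 fell, TEAD2, TEAD4 and VGLL4, or 0 and 5 when scaled by library totals, and YAP1 had a log2 fold change of -0.34 (edgeR adjusted p = 0.437, SE 0.33). Of the 16 Hippo regulators 5 rose, including SAV1 and WWC1, and 2 fell, including WTIP, but scaling by library totals turned this split to 2 rising and 4 falling. Of the actin genes 7 of 9 fell, ACTA2 from 88.0 and 144 CPM to 2.13 and 2.88 CPM, and 1 rose, VCL (log2 fold change 0.81, edgeR adjusted p = 0.0146), whereas 0 rose when scaled by library totals. Of the 6 TGF-β target genes 1 rose, SKIL (log2 fold change 0.94, edgeR adjusted p = 0.00623), and 2 fell, TGFBI (-2.56, edgeR adjusted p = 1.7e-05) and LTBP2 (-1.95, edgeR adjusted p = 0.00214), or 0 and 2 under library totals. Of the 12 genes in the immediate early list 2 rose, KLF6 and the heat shock gene HSPA1A, and 1 fell, FOSB, or 0 and 1 under library totals. Their summed level was 2500 to 2948 CPM with OA and 3011 to 3405 CPM in the control. On leaving out each of the 4 libraries, calls in either direction fell to 3 or 4 in the Hippo list, to 1 or 2 in the YAP and TEAD list, to 1 among the immediate early genes and to between 9 and 12 among the further targets.

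OA control and untreated OS organoids were compared as the background of that experiment; this comparison shares the 2 OA control libraries with the one above. Only ANKRD1 was called among the 7, beside 0.573% of all genes. It stood at 15.2 and 22.6 CPM in the OA control and at 105 and 44.5 CPM in untreated organoids (log2 fold change -1.82, SE 0.31, edgeR adjusted p = 0.0353). The OA libraries, at 59.8 and 75.2 CPM, thus lay within the range of the untreated ones for ANKRD1. The call was lost in a fit of these 4 libraries alone (edgeR adjusted p = 0.310) and without untreated replicate 1 (-1.17, edgeR adjusted p = 0.112), OA control replicate 1 (-1.63, edgeR adjusted p = 0.341) or OA control replicate 2 (-2.04, edgeR adjusted p = 0.328). Untreated replicates 1 and 2 lay apart for CCN1 as well (164 and 65.7 CPM) and for CCN2 (277 and 121 CPM), and the ranges of both genes overlapped those of the OA control. AMOTL2, LATS2, CRIM1 and AJUBA had log2 fold changes between -0.45 and -0.04.

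ULA organoids showed higher CCN1 and CCN2 on day 34 than on day 21, and the other 5 members did not pass the test, beside 15.6% of 22261 genes called, 8.43% higher and 7.19% lower. CCN1 stood at 262 and 165 CPM on day 34 and at 81.1, 24.2 and 63.8 CPM on day 21, without overlap (log2 fold change 1.81, SE 0.45, edgeR adjusted p = 0.0377). CCN2 stood at 128 and 84.9 CPM against 39.6, 15.4 and 27.4 CPM, again without overlap (log2 fold change 1.84, SE 0.36, edgeR adjusted p = 0.0180). ANKRD1 was low on both days, at 2.85 and 5.50 CPM against 6.56, 2.63 and 5.93 CPM (log2 fold change -0.38, SE 0.45, edgeR adjusted p = 0.596). AMOTL2, LATS2, CRIM1 and AJUBA had log2 fold changes between -0.10 and 0.31. The CCN1 call was lost without day 21 replicate 1 (edgeR adjusted p = 0.0738) and both calls were lost without day 21 replicate 3 (edgeR adjusted p = 0.126 and 0.0957), with log2 fold changes that stayed at 1.85 or more. The median of the 7 was 0.13 beside 0.01 for all genes.

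Time in culture and the longer trypsin step of day 34 cannot be told apart in this comparison. Immediate early genes summed to 2877 to 4564 CPM on day 34 and to 555 to 1363 CPM on day 21, and 7 of 12 were called higher. JUN, a subunit of AP-1, stood at 703 and 530 CPM against 157, 81.7 and 151 CPM, ATF3 at 181 and 99.8 against 23.8, 14.8 and 23.1 CPM, and FOS, the most abundant, at 1197 and 521 against 278, 68.0 and 282 CPM without passing the test. Day 21 replicate 2, lowest of the 3 for CCN1 and CCN2, was also the lowest for these 3 genes. Of the hepatocyte markers 5 of 8 were called lower on day 34 (median log2 fold change -3.75, summed level 84.8 to 785 CPM against 2116 to 2385 CPM). Cells with a UMI of EPCAM and none of COL1A2 or COL3A1 made up 11.7% to 18.8% of cells on day 21 and 0.532% to 6.01% on day 34, and cells with both kinds of transcript 29.8% to 42.5% and 49.6% to 59.7%. The part of these genes and cells in the CCN1 and CCN2 values was not tested. With each library left out, 2 to 10 of the immediate early genes were called, fewest without day 21 replicate 1 and most without day 34 replicate 2.

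Of 9 YAP and TEAD genes 4 rose on day 34, among them WWTR1 (63.6 and 69.3 CPM against 30.5, 28.9 and 27.97 CPM), VGLL3 (33.3 and 29.8 against 4.26, 4.11 and 3.05 CPM) and VGLL4, while TEAD4 fell (6.53 and 5.45 against 13.0, 10.8 and 10.3 CPM). YAP1 had a log2 fold change of 0.54 (edgeR adjusted p = 0.0740, SE 0.17). Of 16 Hippo regulators 3 rose and 0 fell, namely FRMD6 (130 and 131 against 31.1, 30.8 and 31.5 CPM), AMOTL1 and AMOT. Of 16 further targets 4 rose, including F3, the gene of tissue factor, and FJX1, and NT5E, an ectonucleotidase, fell. Of the TGF-β target genes 4 of 6 rose, including PMEPA1 (46.7 and 55.7 against 15.9, 11.5 and 15.9 CPM). Of the 9 actin genes 6 rose and 0 fell (median log2 fold change 0.92), among them ACTA2 and FLNA. Leaving out each library in turn gave 0 to 8 calls among these actin genes. Of the remaining CCN genes, 2 of 4 were abundant enough to test, and CCN4 rose (log2 fold change 1.78, edgeR adjusted p = 0.0133). Scaling by library totals, which raised the median of all genes by 0.13, gave 7 rises and 1 fall among the further targets, 5 rises in the Hippo list, and 5 rises and 1 fall in the YAP and TEAD list. The counts also depended on single libraries. On leaving out each one, calls in either direction ranged from 2 to 6 in the YAP and TEAD list, 1 to 5 in the Hippo list, 0 to 10 among the further targets and 2 to 5 among the TGF-β target genes, lowest without day 21 replicate 1 for the first 3 lists and without day 21 replicate 3 for the last, and highest without day 34 replicate 2.

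**Figure D2:**
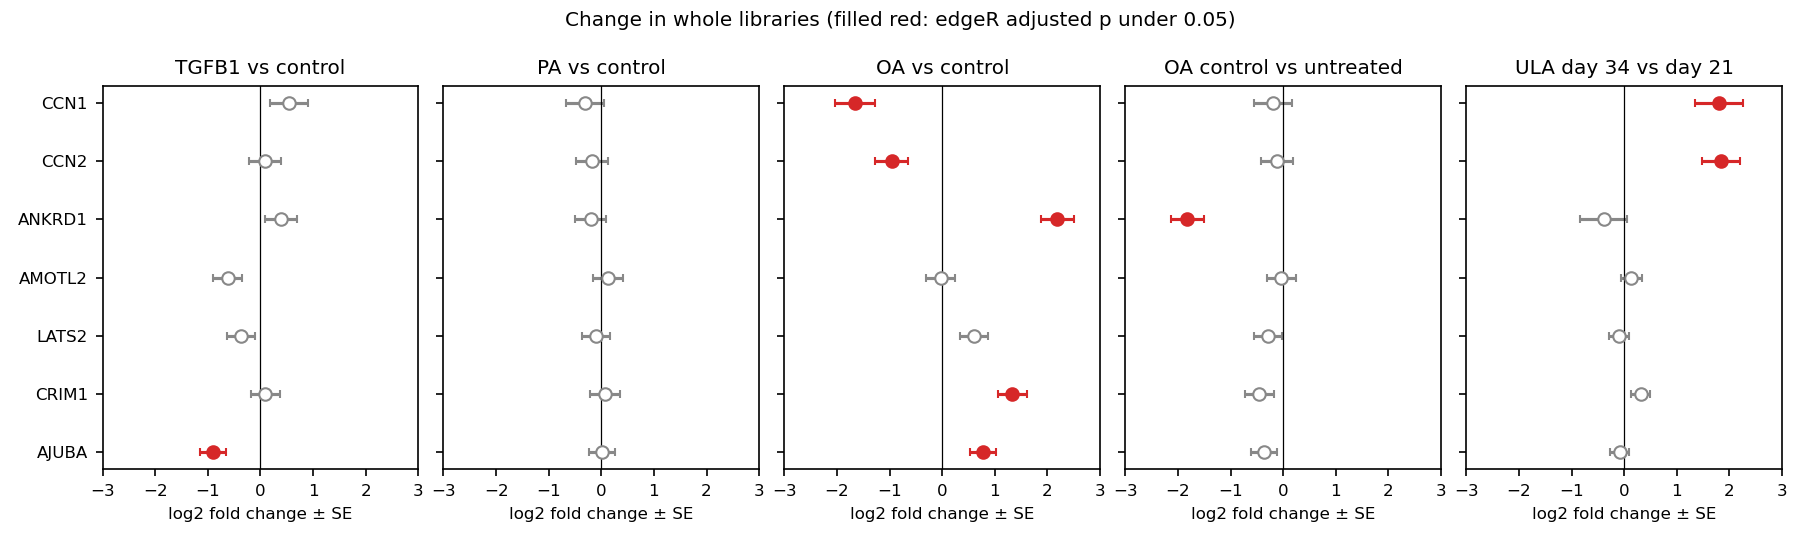
Log2 fold change with its standard error for each YAP target gene in the 5 whole-library comparisons; filled red points passed the edgeR test at an adjusted p under 0.05. With OA the fall of CCN1 (-1.66) and the rise of ANKRD1 (2.19) lie on opposite sides of 0, and with PA all 7 points lie between -0.31 and 0.13.

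Epithelial and mesenchymal cells were then separated by their own transcripts. EPCAM cells had at least 1 UMI of EPCAM and 0 of COL1A2 and COL3A1, and COL cells had at least 1 UMI of either collagen and 0 of EPCAM. Cells with both or neither were in no class, and libraries with under 50 cells of a class were left out of it, which removed day 34 ULA replicate 1 (23 EPCAM cells) and OA replicate 2 (38 COL cells). EPCAM cells made up 0.532% to 88.4% of a library and COL cells 1.18% to 57.1%. In ULA libraries 29.8% to 59.7% of cells held both kinds of transcript. Cells with neither made up 44.7% of TGFB1 control replicate 1, 33.9% of PA control replicate 1 and 24.1% of PA replicate 1. These libraries had medians of 1310, 1747 and 2549 UMIs per cell, and the share was at most 10.2% in any other. In TGFB1 control replicate 1 such cells held 36.1% of the CCN1 UMIs and 41.9% of the ANKRD1 UMIs. The part of depth in the class values was not tested. Droplets also capture free RNA, so a collagen UMI does not by itself make a cell mesenchymal. The other epithelial markers summed to 4088 to 9781 CPM in OS EPCAM cells and to 965 to 1844 CPM in OS COL cells outside the OA library, and the 60 COL cells of OA replicate 1 held 4221 CPM of them, with 3525 CPM of mesenchymal markers against 9269 to 10554 CPM in the control. These 60 cells thus carried more epithelial and less mesenchymal transcript than other COL cells, and class differences that include them are given with and without. The OA comparison in COL cells has no other OA library, so its values rest on these cells alone.

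ANKRD1 had the lowest median ratio of COL to EPCAM level in both cultures. It was lower in COL cells than in EPCAM cells of the same library in 13 of 13 OS and 4 of 4 ULA libraries, where the COL level divided by the EPCAM level ranged from 0.0892 to 0.981 (median 0.174) and from 0.0624 to 0.177 (median 0.0935). In PA control organoids, for example, it stood at 170 and 204 CPM in EPCAM cells and at 34.0 and 22.9 CPM in COL cells. The ratio of 0.981 came from the 60 cells of OA replicate 1. Over the groups, the log2 difference of COL minus EPCAM cells was -2.14 in OS (edgeR adjusted p = 1.6e-13, SE 0.12), where 50.6% of genes were called, and -3.19 in ULA (edgeR adjusted p = 3.1e-10, SE 0.24), where 52.8% were called. Without OA replicate 1 the OS difference was -2.35 (edgeR adjusted p = 4.6e-12). When cells were instead classed by the larger marker count, which places cells with both kinds of transcript, the ULA difference shrank to -0.61 (edgeR adjusted p = 0.00197) and the OS difference to -1.18 (edgeR adjusted p = 1.9e-07).

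CRIM1 was also lower in COL cells, in 10 of 13 OS libraries and 4 of 4 ULA libraries, by 0.62 on the log2 scale in OS (edgeR adjusted p = 3.6e-05) and by 0.61 in ULA (edgeR adjusted p = 2.3e-04, and -0.20 with an edgeR adjusted p of 0.0796 under the larger marker count). Without OA replicate 1 the OS differences of CRIM1 and AMOTL2 were -0.45 (edgeR adjusted p = 2.9e-04) and -0.52 (edgeR adjusted p = 2.0e-04). AMOTL2 differed in opposite directions, lower in COL cells by 0.38 in OS (edgeR adjusted p = 0.00599, and -0.28 with an edgeR adjusted p of 0.0522 under RLE size factors) and higher by 0.51 in ULA (edgeR adjusted p = 0.00473, and 0.14 with an edgeR adjusted p of 0.289 under the larger marker count). LATS2 was higher in COL cells in 12 of 13 OS libraries, with a log2 difference of 0.19 that did not pass the test (edgeR adjusted p = 0.138) but did without OA replicate 1 (0.27, edgeR adjusted p = 0.0139), TGFB1 replicate 1 (0.25, edgeR adjusted p = 0.0468) or PA replicate 1 (0.28, edgeR adjusted p = 0.0388) and under RLE size factors (0.30, edgeR adjusted p = 0.0262), and in 4 of 4 ULA libraries, with 0.51 (edgeR adjusted p = 0.00684), which was 0.21 without day 34 replicate 2 (edgeR adjusted p = 0.139). AJUBA was at 0 of 353217 UMIs in the OA COL cells, which allows up to 8.49 CPM by counting error alone, so its fold over all groups rests on that library. Without it the OS difference was -0.63 (edgeR adjusted p = 4.7e-06), and in ULA it was 0.04 (edgeR adjusted p = 0.827).

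CCN1 and CCN2, the secreted pair, were detected in both classes. CCN1 was higher in COL cells in 6 of 13 OS libraries and CCN2 in 8 of 13, with ratios from 0.576 to 8.67 and from 0.604 to 6.62. The highest ratio of each was in OA replicate 1. Over all OS groups the log2 differences were 0.27 for CCN1 (edgeR adjusted p = 0.00991) and 0.32 for CCN2 (edgeR adjusted p = 3.5e-04), and without OA replicate 1 they were -0.05 (edgeR adjusted p = 0.617) and 0.07 (edgeR adjusted p = 0.431). These averages pool groups whose differences had opposite signs. CCN1 was higher in COL cells of the OA control (0.87, edgeR adjusted p = 2.5e-04, 48.1% of genes called) and of the TGFB1 control (0.64, edgeR adjusted p = 0.00988, 31.9% of genes called). It was lower in COL cells with TGFB1 (-0.68, edgeR adjusted p = 0.00362, 40.1% of genes called), with PA (-0.97, edgeR adjusted p = 0.00245, 32.6% of genes called) and in the PA control (-0.63, edgeR adjusted p = 0.0471, 32.0% of genes called). CCN2 was higher in COL cells of the OA control (1.29, edgeR adjusted p = 4.0e-07) and lower with TGFB1 (-0.55, edgeR adjusted p = 0.00811) and PA (-0.49, edgeR adjusted p = 0.0314). In untreated organoids neither gene passed the test (0.31 and 0.28, edgeR adjusted p = 0.166 and 0.160). In ULA both genes had the higher level in COL cells in 4 of 4 libraries, with log2 differences for CCN1 of 1.11 (edgeR adjusted p = 1.8e-08, SE 0.11) and for CCN2 of 0.22 (edgeR adjusted p = 0.0563), which passed the test without day 21 replicate 1 (0.30), day 21 replicate 2 (0.20) or day 34 replicate 2 (0.41). In the ULA libraries 52.1% to 81.2% of CCN1 UMIs and 26.2% to 63.1% of CCN2 UMIs lay in cells with both kinds of transcript. Those cells are in neither class. Under the larger marker count, which places them, the CCN1 difference was 0.34.

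**Figure D3:**
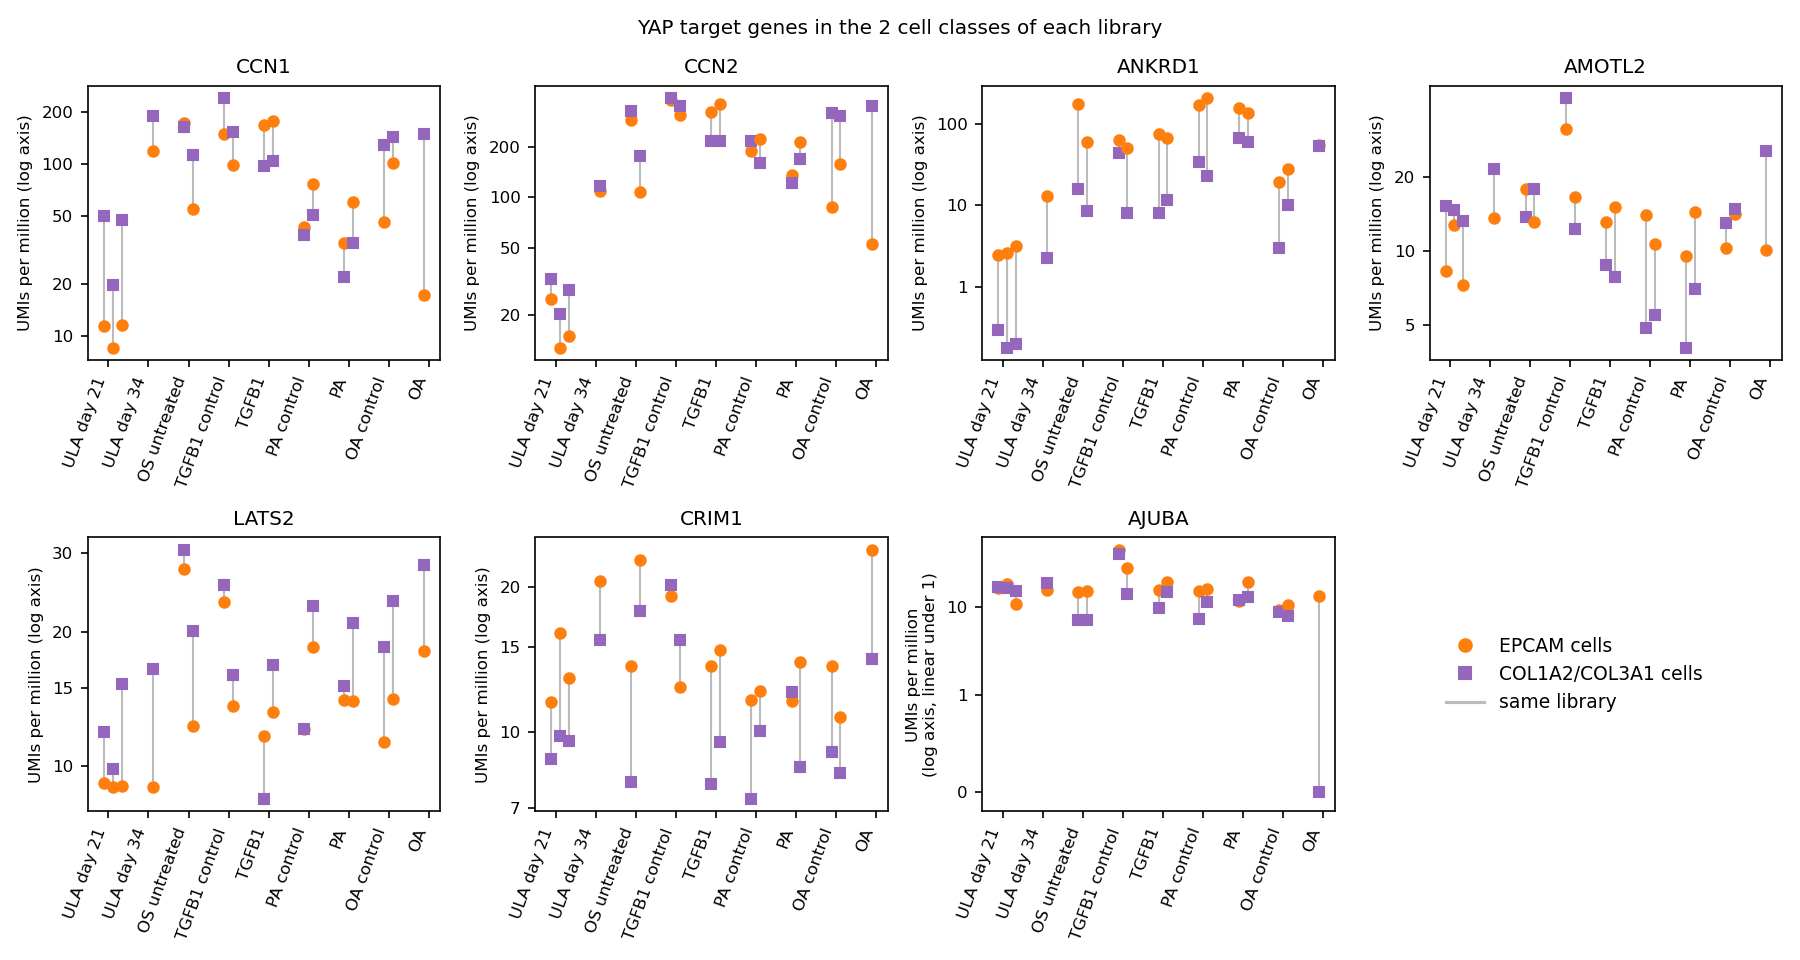
Level of each YAP target gene in EPCAM cells (circles) and COL1A2/COL3A1 cells (squares) of the same library, joined by a line, in CPM on a log axis; AJUBA is drawn linear under 1 because it was at 0 in the COL cells of OA replicate 1. For ANKRD1 the square lies under the circle in all 17 libraries.

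The CCN1 change with TGFB1 differed between the classes, whose shares of cells also moved. COL cells made up 3.92% to 4.57% of cells in the control and 8.55% to 9.56% with TGFB1. Cells with both kinds of transcript made up 1.93% to 5.24% and 8.65% to 15.8%. Whether other cells entered each class with TGFB1 was not tested. In EPCAM cells CCN1 stood at 168 and 178 CPM with TGFB1 against 149 and 98.7 CPM in the control, and in COL cells at 97.9 and 104 against 241 and 154 CPM. COL cells exceeded EPCAM cells 1.61-fold and 1.56-fold in the control and stood at 0.584 and 0.581 of their level with TGFB1. The test of the difference of effects gave -1.32 on the log2 scale (edgeR adjusted p = 0.00185, SE 0.26), with 6.32% of genes called. Neither class passed the test for CCN1 alone (0.70 and -0.65, edgeR adjusted p = 0.246 and 0.309). For CCN2 the COL cells stood at 217 and 215 CPM with TGFB1 against 387 and 351 CPM, and the EPCAM cells at 322 and 357 against 377 and 310 CPM, with a difference of effects of -0.64 (edgeR adjusted p = 0.121). The difference for ANKRD1, -1.18 (edgeR adjusted p = 0.184), passed the test without control replicate 2 (-2.08, edgeR adjusted p = 0.0115). Mesenchymal markers in the EPCAM cells summed to 5166 to 5957 CPM with TGFB1 and to 556 to 1164 CPM in the control, with 2 of 8 called higher, COL1A1 and VIM. Hepatocyte markers in these cells summed to 5231 to 6162 CPM against 2798 to 4178 CPM, although 6 of 8 were called lower and 1 higher (median -1.88). Their part in the member values was not tested. In COL cells 0 of the 7 members passed the test, in a comparison in which 0.0211% of genes were called. An unadjusted p under 0.05 was reached by 2 members, CCN1 and AMOTL2, and by 1896 of 14189 genes. AMOTL2 there passed the test without control replicate 2 (-1.87, edgeR adjusted p = 0.0111), and LATS2, CRIM1 and AJUBA had log2 fold changes between -0.73 and -0.34. In EPCAM cells 1 of 7 was called, beside 25.0% of genes. It was AJUBA, at 15.7 and 19.3 CPM against 45.6 and 28.1 CPM (log2 fold change -0.85, edgeR adjusted p = 0.0207), which was lost without control replicate 1 (-0.58, edgeR adjusted p = 0.171), TGFB1 replicate 1 (-0.71, edgeR adjusted p = 0.191) or TGFB1 replicate 2 (-0.98, edgeR adjusted p = 0.0577). AMOTL2 was called in EPCAM cells without control replicate 2 (-0.83, edgeR adjusted p = 0.0416), and LATS2 and CRIM1 had log2 fold changes of -0.34 and 0.09.

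With PA, 0 of 7 members were called in EPCAM cells (0.103% of genes called) and 0 of 7 in COL cells (0.0% of genes called). An unadjusted p under 0.05 was reached in EPCAM cells by 0 members and by 435 of 17527 genes. In COL cells it was reached by 1 member, ANKRD1, and by 581 of 14189 genes. In COL cells ANKRD1 stood at 66.6 and 58.9 CPM with PA and at 34.0 and 22.9 CPM in the control, without overlap, and in EPCAM cells at 158 and 134 against 170 and 204 CPM. The difference of effects, 1.66 (SE 0.41), had an edgeR adjusted p of 0.478 in a comparison with 0.0107% of genes called. CCN1 in COL cells went the other way, at 22.2 and 34.6 CPM with PA against 38.9 and 50.6 CPM, again without overlap (log2 fold change -0.65, SE 0.31). In EPCAM cells the CCN1 change was -0.29, and that of CCN2 was -0.35 in COL cells and -0.19 in EPCAM cells. AMOTL2, LATS2, CRIM1 and AJUBA had log2 fold changes between -0.11 and 0.15 in EPCAM cells and between -0.09 and 0.28 in COL cells. The difference of effects for ANKRD1 was called when a class needed 2 UMIs of its marker (2.00, edgeR adjusted p = 0.00188).

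Within EPCAM cells 4 of 7 members were called with OA, beside 35.9% of genes. CCN1 stood at 17.3 and 22.7 CPM with OA against 46.4 and 102 CPM (log2 fold change -1.62, SE 0.43, edgeR adjusted p = 0.0106), and ANKRD1 at 54.8 and 71.9 against 19.5 and 27.8 CPM (1.67, edgeR adjusted p = 0.00168, SE 0.33). CRIM1 stood at 23.8 and 25.2 against 13.7 and 10.7 CPM (1.22, edgeR adjusted p = 0.00394) and LATS2 at 18.2 and 18.4 against 11.3 and 14.1 CPM (0.77, edgeR adjusted p = 0.0489). CCN2 stood at 52.6 and 68.7 against 87.2 and 159 CPM, and its change of -0.76 missed the threshold (edgeR adjusted p = 0.103). AJUBA stood at 13.4 and 11.97 CPM against 9.37 and 10.5 CPM, and its change of 0.59 did not pass the test in these cells (edgeR adjusted p = 0.0777). AMOTL2 stood at 10.04 and 9.81 CPM against 10.3 and 14.1 CPM (-0.05, edgeR adjusted p = 0.917). The CCN1 call was lost without OA control replicate 2 (-1.07, edgeR adjusted p = 0.132) or OA replicate 1 (-1.45, edgeR adjusted p = 0.0929), that of CRIM1 without OA control replicate 2 (0.99, edgeR adjusted p = 0.0559), and that of LATS2 on leaving out any of the 4 libraries (0.72 to 0.84) and on removing doublets (0.77, edgeR adjusted p = 0.0523). Mesenchymal markers inside this class summed to 182 to 214 CPM with OA against 917 to 1071 CPM, with 5 of 8 called lower and 1, LUM, called higher. Of the hepatocyte markers 7 of 8 were called higher and 1 lower (median log2 fold change 2.30), while their summed levels overlapped, at 16026 to 18597 CPM against 16010 to 16851 CPM. CD68 was called higher (2.42), and the immune markers summed to 73.5 to 86.7 CPM against 14.8 to 20.1 CPM. The part of these markers in the member values was not tested.

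In COL cells with OA 0 of 7 members were called (3.76% of genes called). The fit had 1 OA library of 60 cells, assumed to vary like the other groups. These cells held 53 UMIs of CCN1 (150.1 CPM) against 129 and 143 CPM in the control, 123 UMIs of CCN2 (348 CPM against 318 and 306 CPM) and 19 UMIs of ANKRD1 (53.8 CPM against 2.98 and 10.2 CPM). The difference of effects between COL and EPCAM cells was 1.501 for CCN1 (edgeR adjusted p = 0.0158, SE 0.38), where 8.36% of genes were called, and 1.07 without OA control replicate 2 (edgeR adjusted p = 0.0877). The median of all genes in that difference was -0.80. AJUBA was called as well (edgeR adjusted p = 0.0229), from 0 UMIs in the OA COL cells, so no size is given, and the call was lost without OA control replicate 1 (edgeR adjusted p = 0.0557) and under RLE size factors (edgeR adjusted p = 0.0542). For CCN2 the difference of 0.69 (edgeR adjusted p = 0.205) passed the test without OA control replicate 1 (1.34, edgeR adjusted p = 0.00321), and for ANKRD1 that of 1.24 (edgeR adjusted p = 0.306) without OA control replicate 2 (2.10, edgeR adjusted p = 0.0455). ANKRD1 in COL cells had a log2 fold change of 2.81 (edgeR adjusted p = 0.0832), which passed the test under the larger marker count (3.24, edgeR adjusted p = 5.1e-04) and without OA control replicate 2 (3.97, edgeR adjusted p = 0.0214).

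On day 34 of ULA culture CCN1 and CCN2 were higher in both classes. In EPCAM cells, with day 34 replicate 2 alone, CCN1 stood at 119 CPM against 11.5, 8.61 and 11.7 CPM on day 21 (log2 fold change 3.13, SE 0.20, edgeR adjusted p = 5.4e-06) and CCN2 at 109 CPM against 25.0, 12.8 and 15.03 CPM (2.27, edgeR adjusted p = 3.3e-04, SE 0.28). The single day 34 library is assumed to vary like those of day 21, and 3 of 7 members were called beside 17.6% of genes. In COL cells CCN1 stood at 281 and 189 CPM against 49.7, 19.7 and 47.6 CPM (2.48, edgeR adjusted p = 0.00433, SE 0.36) and CCN2 at 179 and 117 against 32.6, 20.4 and 28.02 CPM (2.34, edgeR adjusted p = 0.00136, SE 0.24). Here 4 of 7 were called beside 17.7% of genes. Immediate early genes were higher in both classes as well, at 3712 against 582 to 1236 CPM in EPCAM cells and at 2130 to 3331 against 507 to 1193 CPM in COL cells. Hepatocyte markers in EPCAM cells summed to 5430 against 6255 to 8012 CPM, with 6 of 8 called lower (median -2.01). Mesenchymal markers in EPCAM cells summed to 717 against 272 to 297 CPM, with 4 of 8 called higher, and epithelial markers in COL cells to 772 to 2834 against 740 to 975 CPM, with 4 of 7 called higher (median log2 fold change 2.68). The part of all these genes in the member values, those of ANKRD1 included, was not tested. Under the larger marker count the CCN1 change was 1.70 in EPCAM cells (edgeR adjusted p = 0.0239) and 1.68 in COL cells (edgeR adjusted p = 0.0393), and that of CCN2 was 1.96 and 1.75 (edgeR adjusted p = 0.0132 and 0.0113). The rise of CCN1 was smaller in COL cells by 0.92 (edgeR adjusted p = 0.00377, SE 0.22, 20.5% of genes called), a difference of -0.01 under the larger marker count (edgeR adjusted p = 0.979) and of -0.77 without day 21 replicate 1 (edgeR adjusted p = 0.0551).

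ANKRD1 was called higher on day 34 in both ULA classes, in contrast to the whole libraries, and these calls rested on the class rule. It stood at 12.9 CPM against 2.48, 2.56 and 3.14 CPM in EPCAM cells (log2 fold change 1.88, edgeR adjusted p = 0.00228) and at 0.893 and 2.28 CPM against 0.290, 0.179 and 0.196 CPM in COL cells (2.68, edgeR adjusted p = 0.0133), the latter from 4 to 46 UMIs per library. In the ULA libraries 77.8% to 88.8% of its UMIs lay in cells with both EPCAM and collagen transcripts, which are in neither class, and there it stood at 4.42 and 6.09 CPM on day 34 and at 11.99, 5.58 and 10.8 CPM on day 21. When those cells were placed by their larger marker count, the changes were 0.18 in EPCAM cells (edgeR adjusted p = 0.792) and -0.26 in COL cells (edgeR adjusted p = 0.709). The COL call was also lost without any of day 21 replicates 1, 2 or 3 (edgeR adjusted p = 0.0567, 0.0614 and 0.0654). CRIM1 was called higher in COL cells (0.68, edgeR adjusted p = 0.0327), and this call was lost without any of day 21 replicates 1, 2 and 3 or day 34 replicate 1 (0.60 to 0.73) and under the larger marker count (0.45, edgeR adjusted p = 0.126). AMOTL2 in COL cells had a log2 fold change of 0.51 (edgeR adjusted p = 0.0569) that passed the test under the class rule of 2 UMIs (0.53, edgeR adjusted p = 0.0470) and without day 34 replicate 2 (0.58, edgeR adjusted p = 0.0428), while LATS2 and AJUBA stood at 0.18 and -0.06. In EPCAM cells AMOTL2, LATS2, CRIM1 and AJUBA had log2 fold changes between -0.37 and 0.26.

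**Figure D4:**
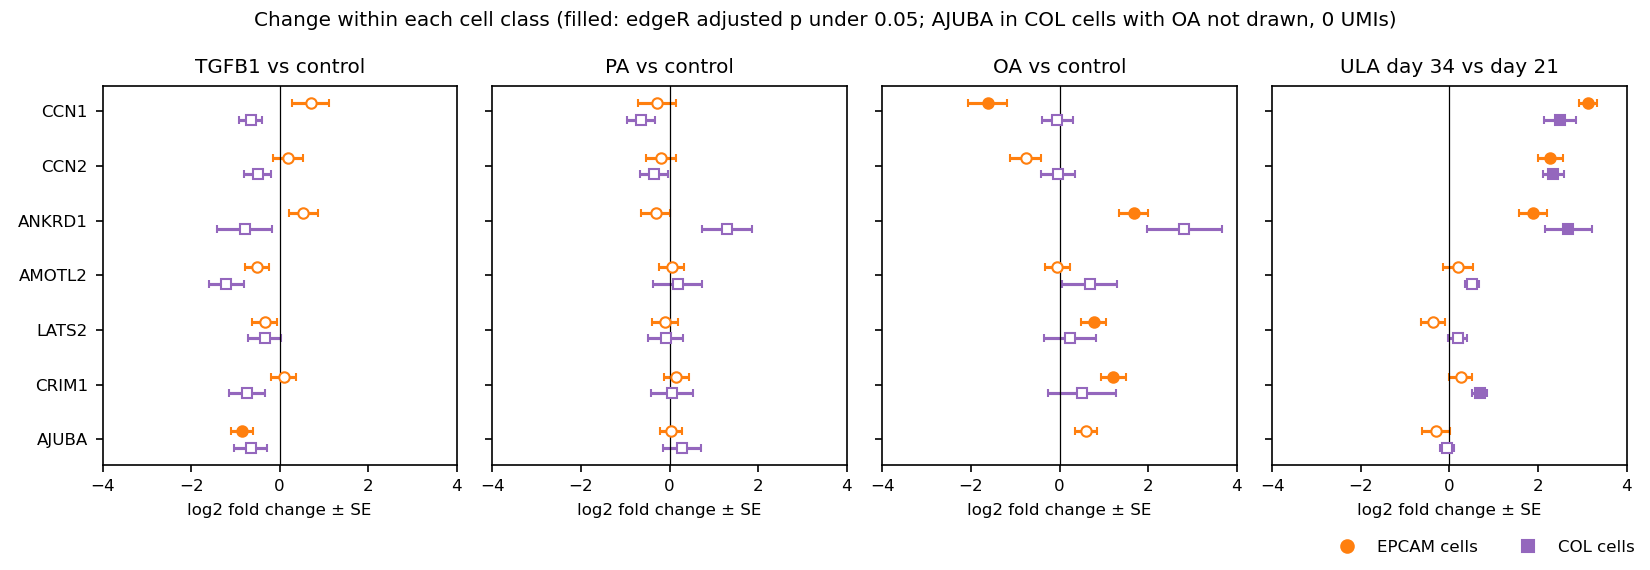
Log2 fold change with its standard error within EPCAM cells (circles) and COL cells (squares) for 4 comparisons; filled symbols passed the edgeR test at an adjusted p under 0.05, and AJUBA in COL cells with OA is not drawn because it had 0 UMIs there. With TGFB1 the CCN1 symbols of the classes lie on opposite sides of 0, at 0.70 and -0.65, and for ULA day 34 CCN1 and CCN2 lie at 2.27 or more in both classes.

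Across the 14 OS libraries the 7 genes did not form a single pattern. The Pearson correlation of TMM-scaled log2 CPM was 0.85 between CCN1 and CCN2, -0.42 between CCN1 and ANKRD1, -0.10 between CCN2 and ANKRD1 and -0.78 between CCN2 and CRIM1. These values are a description over libraries that differ in experiment, depth and cell makeup. AMOTL2 and AJUBA, the highest in TGFB1 control replicate 1, had an r of 0.58. Among 8718 genes with a mean of at least 10 CPM, the 3 most like each member were TMEM109 (r = 0.97), CRABP2 and CNPY4 for CCN1, ATP10D (0.96), TLCD5 and LRP12 for CCN2, AKIRIN1 (0.90), STK17A and CHGA for ANKRD1, and MAP3K7 (0.94), EWSR1 and YAP1 (0.88) for AMOTL2. For LATS2 they were FNBP1 (0.89), QRSL1 and PDHX, for CRIM1 SLC44A4 (0.97), ZBTB38 and WWP1, and for AJUBA CMTR2 (0.96), UNC13B and MTCL1. YAP1 was thus the only gene of the pathway lists among these 21. The 3 nearest genes of any member included no other member.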

How the data were processed

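For the 19 libraries the authors deposited UMI counts per gene and barcode, which are whole numbers without normalization, per the file headers and the values. The submitters' processing notes name Cell Ranger 3.0.2, Scanpy, bcl2fastq and GRCh38, and the matrix headers give 3.0.2 or 6.0.2. Cells were filtered (500 genes, 20% mitochondrial counts), UMIs were summed per library (6880807 to 91184130) and per class, and the sums were tested with edgeR 4.0.16 (quasi-likelihood, TMM, filterByExpr, Benjamini-Hochberg at 0.05 over all genes tested). OS fits held all 14 OS libraries over 32732 shared identifiers, and ULA fits 5 libraries over 58721. Class differences and differences of effects used the library as a block. SE is the log2 fold change divided by the square root of F, an approximation. Groups came from the sample titles. Doublets were kept in the main fits. Scrublet's own threshold marked too few cells in all but 1 library (day 34 ULA replicate 2), so the alternative removed the highest scores at 0.8% per 1000 barcodes. DESeq2 1.42.0, other scalings, filters, class rules and leaving out each library were alternatives. Positions are from GENCODE v44 and promoters from RefSeq. The 7 genes and all gene lists were chosen with earlier results of these data known. All 7 members were tested in every comparison, and some that were not called are given as a range. From each list the counts, the 3 called genes of smallest p and the most abundant gene are named, and YAP1 in addition, while 1 list gene is not reported here. Each fit was tested on simulated data. R was 4.3.3 and Python 3.11.15.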

Additional observations from a re-analysis of the deposited data

Results flagged for a closer look

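The differences of effect between COL and EPCAM cells listed here passed the edgeR test among the 7 genes. The share of all genes called in each comparison is given with its values above. With TGFB1 the CCN1 effect was lower in COL cells by a log2 difference of -1.32 (edgeR adjusted p = 0.00185), a call that held in every alternative run (-1.43 to -1.03, edgeR adjusted p = 1.5e-04 to 0.0389). With OA the CCN1 difference was 1.501, with 60 COL cells in 1 OA library, and it was 1.07 without OA control replicate 2, where the call was lost. With OA the AJUBA difference, fitted as -10.8 (edgeR adjusted p = 0.0229), rests on 0 UMIs in those cells and gives no size. On day 34 of ULA culture the CCN1 difference was -0.92, with 1 day 34 library in the EPCAM class. It was -0.01 under the larger marker count and -0.77 without day 21 replicate 1, and the call was lost in both.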

How the results depend on the processing

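Of 810 pairs of a member and an alternative, 691 kept direction and call, 56 lost the call, 25 gained one and 38 changed sign. The 691 include members that were uncalled in both fits, so they do not count how many calls held. Class results entered only for members called in the main fit or under some alternative. No called whole-library member changed sign, and the cause of these changes was not tested. A fit that leaves 1 library in an arm assumes that it varies like the other groups. Members called when each library was left out, against all libraries, ranged from 0 to 2 (1) for TGFB1, 3 to 4 (5) for OA, 0 to 1 (1) for OA control against untreated and 0 to 2 (2) for ULA; in EPCAM cells from 0 to 2 (1) for TGFB1 and 1 to 3 (4) for OA; in COL cells from 0 to 1 (0) for TGFB1 and OA and 2 to 5 (4) for ULA; for differences of effects from 1 to 2 (1) for TGFB1 and 0 to 2 (1) for ULA. Deviations of same-numbered libraries from their group means had a Pearson r from -0.44 to 0.089. With 2 or 3 libraries per group, this cannot show whether same-numbered libraries were prepared together. Replicate 1 was the shallower library in both PA and its control, at a median of 2549 and 1747 UMIs per cell against 5990 and 7058. With the replicate block 0 members were called for TGFB1, for OA control against untreated and for ULA, and 2 in ULA COL cells. LATS2 in EPCAM cells with OA lost its call with the block (0.76, edgeR adjusted p = 0.0770). With it the 6 pathway lists held 0 calls in ULA, AJUBA with PA was -0.0050 and LATS2 in ULA was 0.020. In fits of the compared libraries alone 0 members were called for TGFB1 and for OA control against untreated, and AJUBA with PA was -0.0031.

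The class rule of 2 UMIs called 1 member in COL cells with OA and 1 difference of effects with PA. The larger marker count, added after seeing that most ULA cells with EPCAM UMIs also hold collagen UMIs, called 2 in COL cells with OA, 2 in ULA COL cells, 3 between ULA classes and 0 ULA differences of effects, and gave ANKRD1 -0.26 in ULA COL cells and -0.32 for its ULA difference of effects. RLE size factors called 1 OA difference of effects and gave AJUBA with PA -0.0046, and removing doublets called 2 ULA differences. Library totals alone turned CCN2 and CRIM1 with TGFB1 to -0.12, AJUBA with PA to -0.042, and LATS2 and AJUBA in ULA to 0.029 and 0.042. The stricter cell filter gave CCN2 and ANKRD1 with PA 0.0014 and 0.018, and DESeq2 gave AJUBA with PA -0.0041.

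Leaving out libraries turned the sign of these uncalled values, whose ranges were -0.068 to 0.28 for CRIM1 with TGFB1, and with PA -0.71 to 0.0051 for CCN1, -0.53 to 0.10 for CCN2, -0.20 to 0.40 for AMOTL2, -0.31 to 0.24 for LATS2, -0.053 to 0.19 for CRIM1 and -0.32 to 0.29 for AJUBA. The range was -0.18 to 0.14 for AMOTL2 with OA. For OA control against untreated it was -0.67 to 0.51 for CCN1, -0.56 to 0.50 for CCN2, -0.20 to 0.12 for AMOTL2, -0.61 to 0.12 for LATS2 and -0.88 to 0.14 for CRIM1. In ULA it was -0.96 to 0.013 for ANKRD1, -0.18 to 0.38 for AMOTL2, -0.18 to 0.016 for LATS2 and -0.19 to 0.0042 for AJUBA. The called CCN1 difference between OS classes ranged from -0.055 to 0.35.

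Genes called with PA (9) numbered 17 under library totals, 162 without the low-count filter, 4 with the block, 16 in the compared libraries alone, 54 with DESeq2 and 0 to 20 on leaving out a library. For OA control against untreated (111) they numbered 255, 523, 0, 0 and 702 in the same order, and for ULA (3476) 0 with the block and 697 to 7166 on leaving out a library. On leaving out a library they numbered 1704 to 5554 for TGFB1 (4295) and 5171 to 6570 for OA (8378), in EPCAM cells 1888 to 5460 for TGFB1 (4374), 0 to 28 for PA (18) and 3260 to 4469 for OA (6300), in COL cells 0 to 1121 for TGFB1 (3), 0 to 6 for PA (0), 232 to 345 for OA (534) and 762 to 4685 for ULA (3083), and for differences of effects 632 to 956 for TGFB1 (1184), 0 to 5 for PA (2) and 987 to 1084 for OA (1567). The larger marker count gave 93 for TGFB1 and 2402 for OA in COL cells, and 725 for TGFB1, 3398 for OA and 2142 for ULA (4073) as differences of effects. Under the 8 alternatives that leave out no library, whole-library calls ranged with TGFB1 from 2 to 6 in the Hippo list (5), 2 to 7 of the immediate early genes (5) and 3 to 8 of the actin genes (5), and with OA from 5 to 11 in the Hippo list (7) and 3 to 6 in the YAP and TEAD list (3). In ULA, besides the block, they ranged from 2 to 5 in the Hippo list (3), 5 to 8 among the further targets (5), 5 to 6 in the YAP and TEAD list (5), 7 to 11 of the immediate early genes (7), 3 to 8 of the actin genes (6) and 4 to 5 of the TGF-β target genes (4). Depth limited COL cells with PA control replicate 1 (2 to 89 UMIs per member) and with OA replicate 1 (0 to 123).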
